A study of Homo sapiens with 3 samples.

Results

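The 9 genes described here are the 2′-5′ oligoadenylate synthetase genes OAS1, OAS3 and OASL, the interferon signalling factors STAT2, IRF9, IRF1 and IRF7, the RNA-activated kinase gene EIF2AK2 and the adaptor gene TMEM173. They were chosen by name for their place in interferon signalling, out of 33538 genes in each matrix, and each of the 9 was found under 1 identifier. All cells came from HCT116, a colorectal cancer line with epithelial features, here with the genotype p53plus. RNA was counted cell by cell in 2 libraries of the 10x Genomics droplet system, which reads the 3′ end of each transcript and counts every captured molecule once by its unique molecular identifier (UMI). Mix1 held irradiated cells only (8 Gy), giant cells that were isolated on day 5 or day 8 and kept in culture until day 10 or day 11, pooled so that its 4 parts cannot be told apart. Mix2 was prepared from cells irradiated in the same manner (IR, 10000 cells loaded), cells that received no irradiation (NC, 0 Gy, 1000 cells) and cells that had repopulated the culture after irradiation (R, 1000 cells), marked with the antibody tags tag8, tag6 and tag7.

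A Mix2 cell was placed in a population when its own tag made up at least 80% of the counts of the 3 tags. NC needed at least 374 counts of tag6, and R at least 104 counts of tag7. Irradiated cells were divided by their tag8 count, with strong IR at 3160 or more and weak IR between 500 and 3159. Cells needed 200 genes or more and a mitochondrial share below 10% of UMIs, which left 810 NC, 633 R, 6322 weak IR and 2216 strong IR cells in Mix2, and 15630 cells in Mix1. The 5 populations held 6104377, 4731705, 46991674, 27127545 and 150680612 gene UMIs in that order. Median UMIs per cell were between 6933 and 7216 in NC, R and weak IR, 11861.5 in strong IR and 8995.5 in Mix1. Median mitochondrial shares were 6.0% in NC, 7.16% in R, 6.49% in weak IR, 5.65% in strong IR and 3.41% in Mix1. Mitotic genes (8 of them, summed) were at 1756, 1823, 1537, 709 and 798 counts per 1000000 UMIs (CPM) in the same order. Empty droplets of Mix2 carried a median of 116 tag8 counts. Weak IR is called irradiated by its tag alone, and whether each of its cells took up the tag itself was not tested, so its values describe cells of that tag range. A total of 59 barcode sequences occurred in both libraries. For Mix1, 10000 cells were loaded, fewer than the 15630 kept, of which 1280 had under 2000 UMIs. Whether each kept barcode of Mix1 was a whole cell was not tested. In all 5 populations the epithelial markers summed to 3776 to 5930 CPM, with CDX1 at 0 in 4 of the 5. The summed markers reached at most 3.24 CPM for fibroblasts, 0.489 for immune, 0.153 for endothelial and 2.78 for erythroid cells.

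Interferons bind receptors whose JAK kinases phosphorylate STAT proteins. Phosphorylated STAT2 joins IRF9 in the complex ISGF3, which binds the interferon-stimulated response element (ISRE) in the promoters of interferon-stimulated genes, whereas STAT dimers bind the gamma-activated site (GAS). Among the products, OAS1 and OAS3 sense double-stranded RNA and make oligoadenylates, a second messenger of the antiviral response, OASL lacks this catalytic activity and promotes signalling by the RNA sensor RIG-I, and EIF2AK2 encodes PKR, which phosphorylates the translation factor eIF2α. TMEM173 encodes STING, which relays the detection of cytosolic DNA by cGAS towards IRF3 and interferon genes, while IRF1 and IRF7 are transcription factors that are induced by interferon and act on interferon genes themselves.

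Promoter windows were available for 6 of the 9 genes in a RefSeq table for GRCh38.p14, which gives 250 bases before and 50 after each gene start. OASL, IRF7 and TMEM173 had no window there and were not searched, so nothing is known here of such letters in them. The windows are shown so that the letters that ISGF3 and STAT dimers are known to bind can be read beside the values. Whether the letters go with the range of a level was not tested. Both strands were searched for the ISRE letters, GAAA and GAAAC with any 2 bases (NN) between them, which 0.795% of 35116 promoters held. They were also searched for a shorter form that lies within these letters, GAAA and GAAA with any 2 bases between them (3.57%), and for the GAS letters, TTC and GAA with any 3 bases between them (7.66%). ISRE letters were found in OAS3 and EIF2AK2 and GAS letters in OAS1, IRF9 and IRF1, while STAT2 held none of these. The windows below are printed 5′ to 3′ on the strand of the gene, with the matched letters in capitals.
OAS3 (chr12:112938306-112938473, + strand): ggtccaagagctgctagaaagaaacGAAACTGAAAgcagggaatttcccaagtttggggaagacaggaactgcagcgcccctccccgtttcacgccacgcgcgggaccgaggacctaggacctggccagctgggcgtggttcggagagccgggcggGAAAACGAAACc
EIF2AK2 (chr2:37156971-37157011, - strand): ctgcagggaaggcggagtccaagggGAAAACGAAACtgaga
OAS1 (chr12:112906769-112906827, + strand): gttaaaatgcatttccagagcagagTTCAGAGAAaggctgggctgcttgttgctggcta
IRF9 (chr14:24161177-24161235, + strand): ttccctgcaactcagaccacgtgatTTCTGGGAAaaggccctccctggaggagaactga
IRF1 (chr5:132490864-132490922, - strand): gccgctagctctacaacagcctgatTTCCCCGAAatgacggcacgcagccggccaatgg
Counting the gene start as 0, the ISRE letters stood at -12 to -2 in OAS3, with a further match of the shorter form at -143 to -134. In EIF2AK2 the ISRE letters ran from -6 to 4 and thus across the start, so that the last 10 bases of its window are transcribed. The GAS letters stood at -168 to -160 in OAS1, at -63 to -55 in IRF9 and at -124 to -116 in IRF1. The starts are those of RefSeq and lie within the GENCODE genes given further on. A match is a description of these letters only, and no binding was measured.

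Each level below is the CPM of the UMIs summed over a population, with an exact Poisson 95% interval in brackets. These intervals, and those of shares (Clopper-Pearson) and of ratios (conditional binomial), cover counting error only. There was 1 sample per population, so no difference was tested and none has a replicate check. More RNA per cell and more cells with the RNA cannot be told apart in a summed level, and shares of positive cells are therefore given beside it. As 3′ counts are captured with different efficiency between genes, levels are compared between populations and not between genes. A gene was called higher or lower when its ratio reached 1.5-fold in either direction, its interval excluded equality and it had at least 10 CPM in 1 of the populations compared.

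OASL (ENSG00000135114, GRCh38 chromosome 12, 121017763 to 121039246, minus strand) showed the widest range of the 5 genes that reached 10 CPM anywhere. Its level was 2.95 CPM (1.75 to 4.66) in NC and 4.23 (2.58 to 6.53) in R. In weak IR it was 8.64 CPM (7.82 to 9.52), in strong IR 25.4 (23.5 to 27.3) and in Mix1 13.3 (12.7 to 13.9). The order was thus NC, R, weak IR, Mix1 and strong IR, and NC and R were the only neighbours whose intervals overlapped. OASL was seen in 2.22% of NC cells (1.32 to 3.49) and in 3.16% of R cells (1.94 to 4.84). It was seen in 4.41% of weak IR cells (3.92 to 4.95), 7.33% of Mix1 cells (6.93 to 7.75) and 10.6% of strong IR cells (9.35 to 12.0). With each cell thinned to 5000 UMIs, which left out 111 NC, 96 R, 1099 weak IR (17.4%), 150 strong IR and 4963 Mix1 cells (31.8%), the shares became 1.14% in NC, 2.05% in R, 3.1% in weak IR, 3.85% in Mix1 and 6.0% in strong IR, in the same order. At equal depth the share was thus still highest in strong IR. In Mix1 the cells left out include the quartile with the fewest UMIs, which had the highest OASL level, 28.8 CPM.

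**Figure D1:**
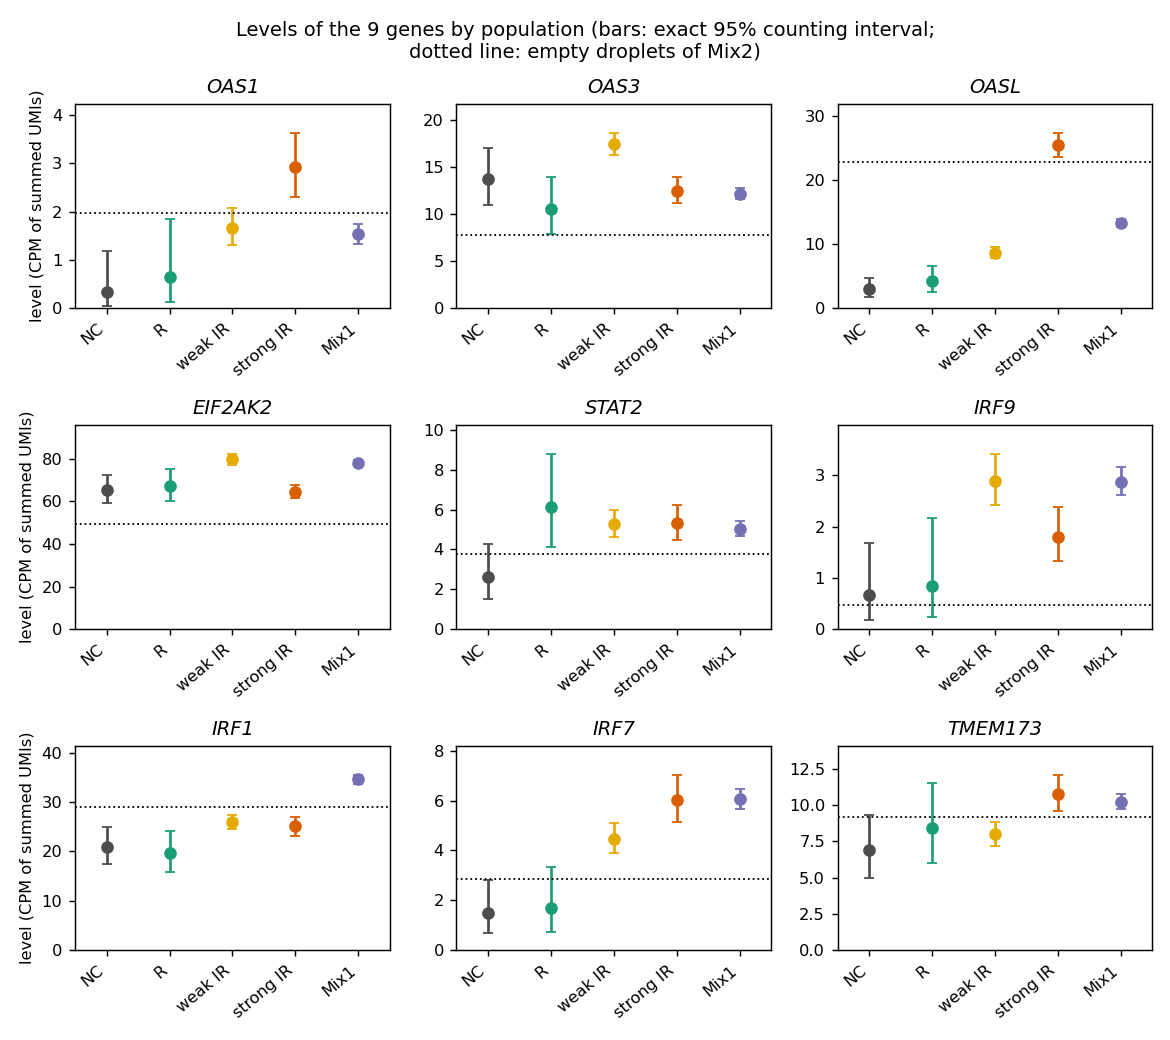
Level of each of the 9 genes (y axis, CPM of summed UMIs) in the 5 populations (x axis), with exact 95% counting intervals as bars and the level in empty droplets of Mix2 as a dotted line. OASL lies at 2.95 CPM in NC and 25.4 in strong IR, whereas OAS3 and EIF2AK2 stay close to their NC levels.

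The OASL UMIs were gathered in few cells. Every one of the 18 OASL-positive NC cells and of the 20 positive R cells held a single UMI. In strong IR, 45 of the 2216 cells held 5 or more UMIs each, up to 25, and these 45 cells held 61.0% of the 688 OASL UMIs of the population. In Mix1, 63 of 15630 cells had 5 or more, up to 62, with 35.2% of 2004 UMIs, and in weak IR 11 of 6322 cells had 5 or more, up to 17, with 27.6% of 406 UMIs. Without the UMIs of such cells the level would be 9.88 CPM in strong IR, 8.61 in Mix1 and 6.26 in weak IR, still above the 2.95 CPM of NC. Because the cells that hold many UMIs are so few, the counting intervals of OASL are narrower than its spread over cells.

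**Figure D2:**
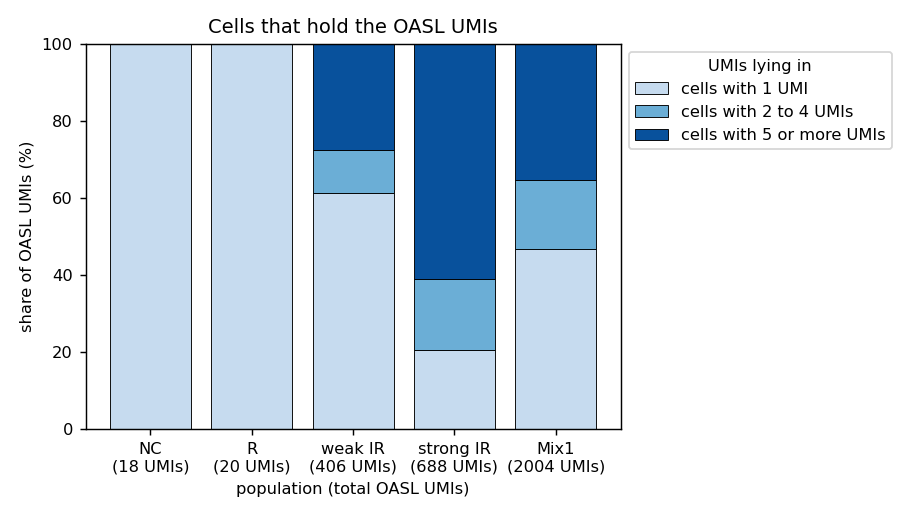
Share of the OASL UMIs of each population (y axis, %) that lie in cells with 1 UMI, 2 to 4 UMIs or 5 or more UMIs of OASL, by population (x axis, with the total of OASL UMIs). In NC and R all UMIs lie in cells with 1 UMI, whereas 61.0% of those in strong IR lie in cells with 5 or more.

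RNA outside cells also bears on OASL. Empty droplets of Mix2 held OASL at 22.9 CPM, 7.75 times the NC level (4.85 to 13.2) and close to that of strong IR. If each cell held as many background UMIs as the median empty droplet, 391 in droplets chosen for at least 200 and fewer than 500 UMIs, this background would supply 40.2% of the OASL UMIs of NC, 28.3% of those of R, 13.9% of those of weak IR and 2.88% of those of strong IR. With a background of 10% of the UMIs of each cell subtracted, a share that was assumed and not measured, the ratio of strong IR to NC was 35.2 (13.7 to 130), against 8.60 without it.

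OAS3 (ENSG00000111331, chromosome 12, 112938051 to 112976460, plus strand), the member of the family that makes long oligoadenylates, was at 13.8 CPM (11 to 17.0) in NC and 10.6 (7.84 to 13.9) in R. It was at 17.4 CPM (16.2 to 18.6) in weak IR, 12.5 (11.2 to 13.9) in strong IR and 12.2 (11.6 to 12.7) in Mix1. Weak IR thus had the highest level, with an interval that overlapped that of NC alone, and the intervals of the other 4 populations overlapped. The share of OAS3-positive cells was 13.4% in strong IR and 10.1% in NC, but 6.20% and 7.01% after thinning, so no order is read from the raw shares. OAS1 (ENSG00000089127, chromosome 12, 112905856 to 112933219, plus strand) was scarce but, like OASL, highest in strong IR. It had 2 UMIs in NC and 3 in R, against 78 in weak IR, 79 in strong IR and 230 in Mix1. These were 0.328 (0.0397 to 1.18), 0.634 (0.131 to 1.85), 1.66 (1.31 to 2.07), 2.91 (2.31 to 3.63) and 1.53 CPM (1.34 to 1.74), with empty droplets at 1.98 CPM. In the annotation, GENCODE 44, a gene on the opposite strand (ENSG00000257452) overlaps both OAS1 and OAS3, as GPATCH11 overlaps EIF2AK2 and IRF1-AS1 overlaps IRF1. The strand used in counting was not stated, so reads of such partners cannot be told apart.

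EIF2AK2 (ENSG00000055332, chromosome 2, 37099210 to 37157522, minus strand), the gene of PKR, gave the most UMIs among the 9. It was at 65.5 CPM (59.3 to 72.3) in NC and 67.4 (60.2 to 75.2) in R. Weak IR had 79.8 CPM (77.3 to 82.4), strong IR 64.6 (61.6 to 67.7) and Mix1 78.1 (76.7 to 79.5). The intervals of NC, R and strong IR thus overlapped, and weak IR and Mix1 were above them by less than 1.5-fold. Its share of positive cells was highest in strong IR (48.8%, against 37.4% in NC), but the thinned share was 26.7% in strong IR and 27.0% in NC, and no order is read from the raw share.

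The components of ISGF3 were low in every population. STAT2 (ENSG00000170581, chromosome 12, 56341597 to 56360203, minus strand) was at 2.62 CPM (1.5 to 4.26) in NC, and at 6.13 (4.10 to 8.80) in R, 5.28 (4.64 to 5.98) in weak IR, 5.31 (4.48 to 6.25) in strong IR and 5.04 (4.69 to 5.41) in Mix1. NC had the lowest level, overlapping with R alone, and the other 4 overlapped with each other. IRF9 (ENSG00000213928, chromosome 14, 24161234 to 24168043, plus strand), the DNA-binding partner of the complex, had 4 UMIs each in NC and R, which were 0.655 CPM (0.179 to 1.68) and 0.845 CPM (0.230 to 2.16). It was at 2.89 CPM (2.43 to 3.42) in weak IR, 1.81 (1.34 to 2.39) in strong IR and 2.87 (2.61 to 3.16) in Mix1. In contrast to OASL and OAS1, IRF9 was therefore not highest in strong IR, whose interval overlapped those of NC and R and not those of weak IR and Mix1.

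IRF1 (ENSG00000125347, chromosome 5, 132440440 to 132508719, minus strand), a factor that is induced early by interferon-gamma, was at 21.0 CPM (17.5 to 24.9) in NC and 19.7 (15.9 to 24.1) in R. It was at 25.9 CPM (24.4 to 27.4) in weak IR, 25.1 (23.2 to 27.0) in strong IR and 34.6 (33.7 to 35.6) in Mix1. Mix1 stood above the 4 populations of Mix2, but it was also another library, and library and population cannot be told apart there. Few cells had many IRF1 UMIs, with 60 Mix1 cells at 5 or more holding 9.17% of 5214 UMIs. The level in empty droplets was 28.9 CPM. IRF7 (ENSG00000185507, chromosome 11, 612553 to 615983, minus strand), which amplifies the transcription of type I interferon genes, was at 1.47 CPM (0.674 to 2.80) in NC and 1.69 (0.730 to 3.33) in R. It was at 4.47 CPM (3.89 to 5.12) in weak IR, 6.05 (5.16 to 7.05) in strong IR and 6.07 (5.68 to 6.47) in Mix1. NC and R overlapped, and the 3 irradiated populations lay above them.

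TMEM173 (ENSG00000184584, named STING1 in GENCODE 44, chromosome 5, 139475533 to 139482935, minus strand) was at 6.88 CPM (4.96 to 9.30) in NC, 8.45 (6.04 to 11.5) in R, 7.98 (7.19 to 8.83) in weak IR, 10.8 (9.60 to 12.1) in strong IR and 10.2 (9.73 to 10.8) in Mix1. Strong IR and Mix1 had the highest levels, and neighbours in the order NC, weak IR, R, Mix1 and strong IR overlapped. Empty droplets held 9.21 CPM, within this range.

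The comparison of strong IR with NC asks how the irradiated cells with a strong tag differed from cells of the same line without irradiation. Of the 9 genes, 5 had 10 CPM or more in either population, and OASL and TMEM173 were called higher, 2 of 5, beside 9.92% of 7722 genes tested that were higher and 15.4% that were lower. Both passed the minimum only through strong IR, the population in which they were higher, so this count says little about the 9 genes. OASL was 8.60-fold higher (5.40 to 14.6) and TMEM173 1.57-fold (1.13 to 2.22). The latter was 1.46-fold with an interval of 0.944 to 2.33 after thinning to 5000 UMIs. The ratio was 0.908 (0.713 to 1.17) for OAS3, 0.986 (0.884 to 1.10) for EIF2AK2 and 1.20 (0.988 to 1.46) for IRF1, with intervals that included equality. Below 10 CPM in both populations lay OAS1 with a ratio of 8.89 (2.38 to 74.7), IRF7 with 4.10 (2.11 to 9.13), IRF9 with 2.76 (1.01 to 10.5) and STAT2 with 2.03 (1.20 to 3.64). IRF1 was at 1.44 (1.10 to 1.93) after thinning. Without the minimum, 6 of the 9 were higher and 0 lower, beside 7.90% and 8.71% of 19469 genes. With the mitochondrial limit at 5%, IRF9 went the other way, with 9 UMIs in strong IR and 2 in NC (ratio 0.604, 0.125 to 5.75).

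**Figure D3:**
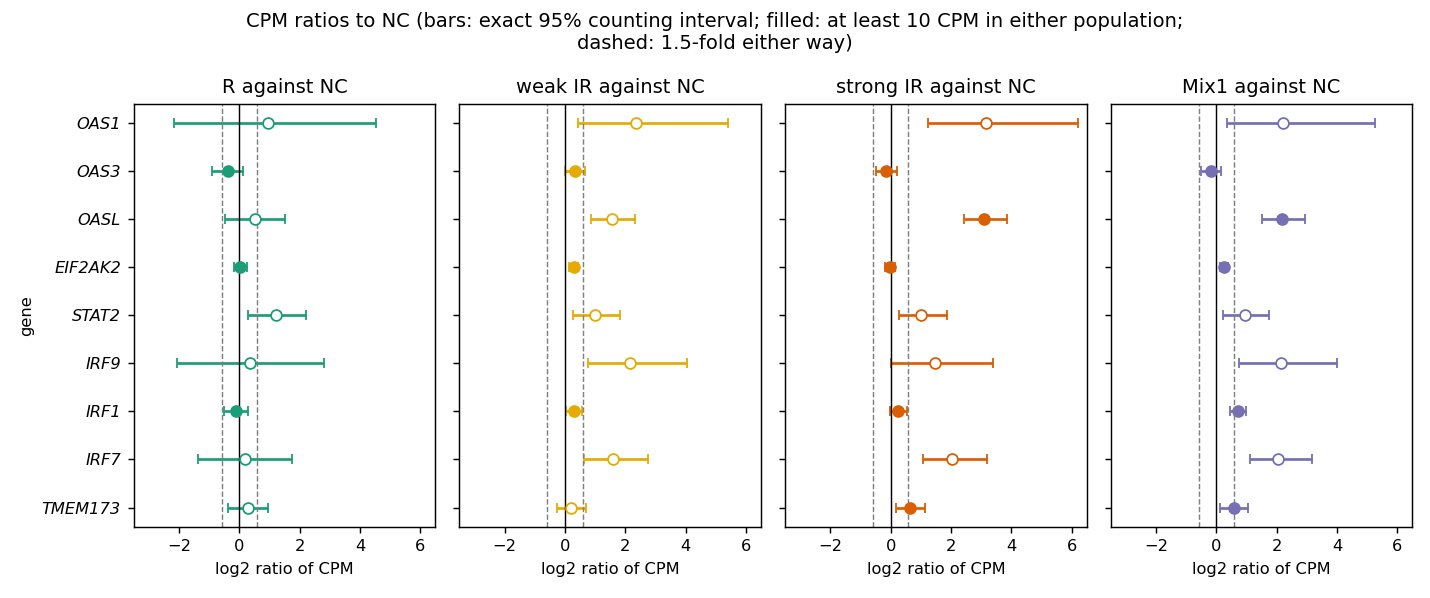
Log2 ratio of CPM to NC (x axis) for each gene (y axis) in R, weak IR, strong IR and Mix1, with exact 95% counting intervals; filled points had at least 10 CPM in either population and dashed lines mark 1.5-fold. OASL lies at 3.1 in strong IR and 2.17 in Mix1, while OAS3 and EIF2AK2 lie between -0.38 and 0.34 in all 4 panels. All panels share the NC cells.

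Weak IR was compared with NC by the same rule. Only 3 of the 9 genes, OAS3, IRF1 and EIF2AK2, had 10 CPM in either population, and 0 of the 3 was called, beside 0.709% of 7478 genes higher and 0.481% lower. Their ratios were 1.27 (1.01 to 1.60), 1.23 (1.03 to 1.49) and 1.22 (1.10 to 1.35), all above equality and below 1.5-fold. Without the minimum, 5 of 9 were higher, beside 1.22% of 20115 genes, and 0 lower, beside 0.994%. These were OAS1 with 5.07 (1.36 to 42.6), IRF9 with 4.42 (1.69 to 16.4), IRF7 with 3.03 (1.57 to 6.72), OASL with 2.93 (1.83 to 4.99) and STAT2 with 2.01 (1.21 to 3.58). All 5 rested on 18 or fewer UMIs in NC. Where 95% of the tags had to be the own tag, which left 88 NC cells, OASL was at 1.86 (0.722 to 6.87).

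The comparison of R with NC asks what remained different once cells had repopulated. OAS3, IRF1 and EIF2AK2 had 10 CPM or more, and again 0 of 3 was called, beside 1.42% of 7533 genes higher and 1.77% lower. EIF2AK2 had a ratio of 1.03 (0.885 to 1.20), IRF1 of 0.937 (0.710 to 1.23) and OAS3 of 0.768 (0.530 to 1.10). After thinning, OAS3 was at 0.469 of the NC level (0.257 to 0.817), on 18 UMIs in R and 50 in NC. Without the minimum, STAT2 alone was called, 2.34-fold higher (1.23 to 4.61) on 29 UMIs in R and 16 in NC, beside 1.66% of 16901 genes higher and 1.43% lower. OASL was at 1.43-fold (0.720 to 2.87), an interval that holds both equality and the 1.5-fold limit.

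Strong and weak IR carried the same tag in the same library, and differed in how much of it they had. Of 5 genes with 10 CPM or more, OASL was called, 2.94-fold higher in strong IR (2.59 to 3.33), beside 7.23% of 7625 genes higher and 10.6% lower. OASL and TMEM173 passed the minimum only through strong IR, so nothing is read from the count. TMEM173 was at 1.35-fold (1.16 to 1.58), while OAS3 was at 0.718 (0.631 to 0.816) and EIF2AK2 at 0.810 (0.765 to 0.857) of the weak IR level, all short of 1.5-fold. IRF1 was at 0.969 (0.881 to 1.07). Of the genes below 10 CPM, OAS1 was higher in strong IR at 1.75 (1.27 to 2.43) and IRF9 lower at 0.624 (0.441 to 0.871), beside 7.97% higher and 7.04% lower of 21025 genes without the minimum. When the mitochondrial limit was set at 5%, which kept 906 strong IR and 1160 weak IR cells, OASL was at 28.1 CPM (25 to 31.5) in strong IR and 18.9 (15.7 to 22.6) in weak IR. The ratio was then 1.48 (1.20 to 1.85), below the limit for a call. The weak IR cells under this limit thus had more OASL than weak IR as a whole, and the part of the mitochondrial share in the difference was not tested further.

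Across the whole range of tag8 the genes moved in different directions. OASL was at 6.52 CPM (5.03 to 8.30) in cells with 500 to 999 tag8 counts. It was at 8.67 (7.54 to 9.92) with 1000 to 1999 and 10.2 (8.57 to 12.2) with 2000 to 3159. It was at 17.0 CPM (14.7 to 19.6) with 3160 to 6319 and at 31.1 (28.4 to 33.9) with 6320 or more. Each bin was thus higher than the one before, though neighbours among the 3 lower bins had overlapping intervals. Median UMIs per cell rose as well, at 5720, 7458.5, 9184, 11841 and 11904.5 from the first bin to the last. Depth was not separated from tag8 here. OAS3 held between 17.2 and 18.0 CPM in the 3 lower bins and was at 15.4 (13.2 to 17.9) and 10.5 (8.98 to 12.2) in the upper ones. EIF2AK2 likewise held between 78.9 and 80.3 CPM in the 3 lower bins and was at 72.0 (67.1 to 77.2) and 59.6 (55.8 to 63.4) above them. IRF9 was at 1.12 CPM (0.663 to 1.77) in the highest bin and between 2.71 and 3.01 in the other 4. IRF1 ranged from 23.0 to 28.1 CPM with no steady direction.

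**Figure D4:**
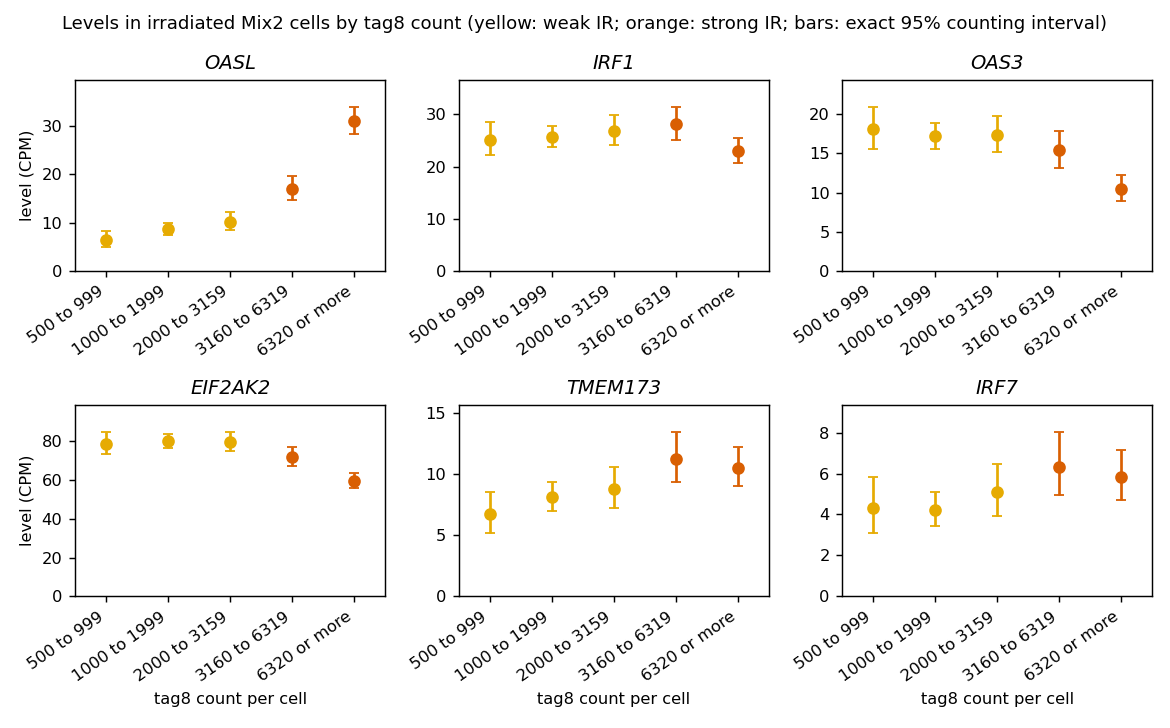
Levels (y axis, CPM) of 6 of the genes in irradiated Mix2 cells grouped by their tag8 count (x axis), with exact 95% counting intervals; the first 3 bins are weak IR and the last 2 strong IR. OASL lies at 6.52 CPM in the first bin and 31.1 in the last, whereas OAS3 and EIF2AK2 are lowest in the last bin, at 10.5 and 59.6 CPM.

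Against R, strong IR had OASL 6.0-fold higher (3.86 to 9.89), the 1 gene called of 5 and past the minimum only through strong IR, beside 8.76% of 7658 genes higher and 11.4% lower. IRF1 was at 1.28 (1.03 to 1.60), OAS3 at 1.18 (0.877 to 1.63), TMEM173 at 1.28 (0.916 to 1.82) and EIF2AK2 at 0.959 (0.850 to 1.08). Among the scarce genes, OAS1 was at 4.59 (1.51 to 22.8) and IRF7 at 3.58 (1.77 to 8.42), beside 6.13% higher and 7.09% lower of 19383 genes without the minimum. For STAT2 the ratio was 0.866 (0.578 to 1.34). Mix1 against NC, a comparison across libraries, had OASL 4.51-fold (2.85 to 7.63) and IRF1 1.65-fold higher (1.38 to 1.98), 2 of 5 called, beside 6.97% of 7662 genes higher and 10.0% lower. OASL passed the minimum only through Mix1, so nothing is read from this count either. TMEM173 was at 1.49 (1.10 to 2.07), EIF2AK2 at 1.19 (1.08 to 1.32) and OAS3 at 0.885 (0.711 to 1.12). OAS1 (4.66, 1.27 to 38.7), IRF9 (4.38, 1.70 to 16.2), IRF7 (4.11, 2.16 to 9.03) and STAT2 (1.92, 1.18 to 3.38) were higher on levels below 10 CPM in both, beside 5.47% of 23730 genes higher and 5.04% lower without the minimum. Mix1, like strong IR, thus had more of OASL and IRF7 than NC and about as much OAS3. All genes tested had a median log2 ratio between -0.11 and -0.03 in the 6 comparisons.

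The rest of the pathway was given by lists, strong IR against NC, which were chosen with earlier results of these data known. Their counts are given beside the background of 9.92% and 15.4% and only describe these lists. Of 35 effector genes, whose products carry out the antiviral response, 19 were measured at 10 CPM or more, of which 15 were higher and 0 lower. Their median log2 ratio was 1.24. ISG20, an exonuclease, was 8.15-fold higher (4.24 to 18.0), IFI27 7.32-fold (4.84 to 11.6), BST2, which tethers budding virions, 7.31-fold (4.88 to 11.5) and IFI6 5.81-fold (4.87 to 6.98). OASL, at 8.60-fold, was near the largest of these ratios, whereas OAS3 and EIF2AK2 stayed close to their NC levels. Of the 15, 8 passed the minimum only through strong IR, where they were higher, and without the minimum 20 of the 35 were higher and 0 lower, beside 7.90% and 8.71%. ISG15, the ubiquitin-like modifier, was at 1072 CPM in strong IR, 631 in weak IR, 382 in R and 313 in NC. Of the STAT genes, 2 of 3 measured were higher, among them STAT3 at 1.91-fold (1.62 to 2.26). Of the IRF genes 1 of 3 was higher, past the minimum only through strong IR. In the list of receptors 1 of 3 was higher, IFNGR1, a chain of the interferon-gamma receptor, at 1.67-fold (1.28 to 2.19). Of the sensors and adaptors 3 of 7 were higher, all 3 past the minimum only through strong IR, TICAM1, the adaptor of TLR3, at 1.84-fold (1.31 to 2.64), TMEM173 at 1.57-fold and IFIH1, which encodes the RNA sensor MDA5, at 1.51-fold (1.12 to 2.10).

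In the lists of the OAS and PKR arms, smaller parts of the measured genes were higher than among the effector genes. In the list of OAS genes and their partners, OASL was the 1 of 4 measured that was higher, past the minimum only through strong IR. The median log2 ratio of this list was -0.25, over the 4 measured genes. Without the minimum, 2 of its 7 genes were higher and 0 lower, beside 7.90% and 8.71%. OAS1, left out by the minimum, had a ratio of 8.89 (2.38 to 74.7), as large as that of OASL. OAS2, which was named after its values were seen, had 4 UMIs in strong IR and 0 in NC. In the PKR list 0 of 8 was higher and 1 was lower, PPP1R15A, a phosphatase subunit that reverses eIF2α phosphorylation, at 0.452 (0.387 to 0.529). The median log2 ratio was -0.33, and without the minimum 0 of 9 was higher and 1 lower. The kinases (0 of 1 called) and negative regulators (0 of 4) gave medians of -0.09 and -0.28. No gene of the interferon ligand list reached 10 CPM. IFNL1, a type III interferon that was named after its values were seen, had 22 UMIs in strong IR (0.811 CPM), 19 in weak IR, 183 in Mix1, 1 in R and 0 in NC.

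Within the populations, cells thinned to 5000 UMIs were divided at the median of their ISG15 UMIs, a division that was added after the data had been seen. In strong IR, OASL was at 49.6 CPM (43.5 to 56.2) in the 980 cells above the median and at 4.79 (3.13 to 7.02) in the other 1086, a ratio of 10.4 (6.90 to 16.2). The ratio was 3.89 (3.20 to 4.75) in Mix1 and 2.73 (2.04 to 3.67) in weak IR. In NC it was 0.812 (0.126 to 4.17), on 8 UMIs. OASL thus lay mainly in the ISG15-rich cells of the irradiated populations. In the cells at or below the median it was at 4.79 CPM in strong IR, 4.82 in weak IR and 4.74 in Mix1, close to each other. NC cells at or below their median had 2.49 CPM (0.808 to 5.81), an interval that holds these values. All thinned NC cells had 2.29 CPM (0.988 to 4.51). The dividing median was 3 ISG15 UMIs in strong IR, 2 in weak IR and Mix1 and 1 in NC, so the sets are not alike. IRF1 and TMEM173 went with ISG15 more weakly, at 1.55 (1.21 to 1.98) and 1.59 (1.07 to 2.37) in strong IR and at 1.27 (1.16 to 1.39) and 1.42 (1.19 to 1.70) in Mix1. In weak IR their ratios were 0.963 (0.818 to 1.13) and 1.07 (0.801 to 1.42), which include equality. IRF9 was at 2.77 (1.71 to 4.62) in weak IR, 1.45 (1.05 to 2.01) in Mix1 and 1.33 (0.527 to 3.44) in strong IR. IRF7 was at 1.61 (1.29 to 2.02) in Mix1, 1.48 (0.979 to 2.23) in weak IR and 1.42 (0.814 to 2.50) in strong IR. OAS1 was 5.17-fold higher in the ISG15-rich cells of strong IR (2.10 to 15.3), 3.70-fold in weak IR (1.92 to 7.60) and 2.33-fold in Mix1 (1.39 to 4.00). For OAS3 the ratios were 0.960 (0.678 to 1.36) in strong IR and 1.11 (0.952 to 1.29) in Mix1, and for EIF2AK2 1.12 (0.964 to 1.31) and 1.01 (0.954 to 1.07), each including equality. In weak IR, EIF2AK2 was at 1.17 (1.07 to 1.27).

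The cells were also divided at the median of the summed UMIs of 8 mitotic genes (MKI67, TOP2A, CCNB1, CDK1, PLK1, AURKA, CDC20 and BUB1). All 8 were lower in strong IR than in NC. The dividing median was 8 UMIs in NC, 7 in weak IR, 3 in Mix1 and 2 in strong IR. Mitotic-rich is therefore relative to each population, and the ratios divide unlike sets of cells. OAS3 was higher in the mitotic-rich cells, 2.45-fold in strong IR (1.71 to 3.53), 1.85-fold in Mix1 (1.58 to 2.16) and 1.26-fold in weak IR (1.04 to 1.52). EIF2AK2 was higher in them as well, 1.26-fold (1.08 to 1.47), 1.44-fold (1.36 to 1.53) and 1.17-fold (1.08 to 1.28). OASL went the other way, at 0.731 (0.563 to 0.945) in strong IR, 0.484 (0.405 to 0.577) in Mix1 and 0.485 (0.354 to 0.658) in weak IR. In NC the ratios of OAS3 and EIF2AK2 were 1.17 (0.640 to 2.11) and 0.987 (0.749 to 1.30), so no such difference was detectable there at this depth. OASL in NC had 7 of its 8 UMIs in the mitotic-rich cells, a ratio of 8.83 (1.14 to 398) in the direction opposite to the irradiated populations. With respect to mitotic genes, OAS3 and EIF2AK2 on one side and OASL on the other thus went in opposite directions in all 3 irradiated populations.

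**Figure D5:**
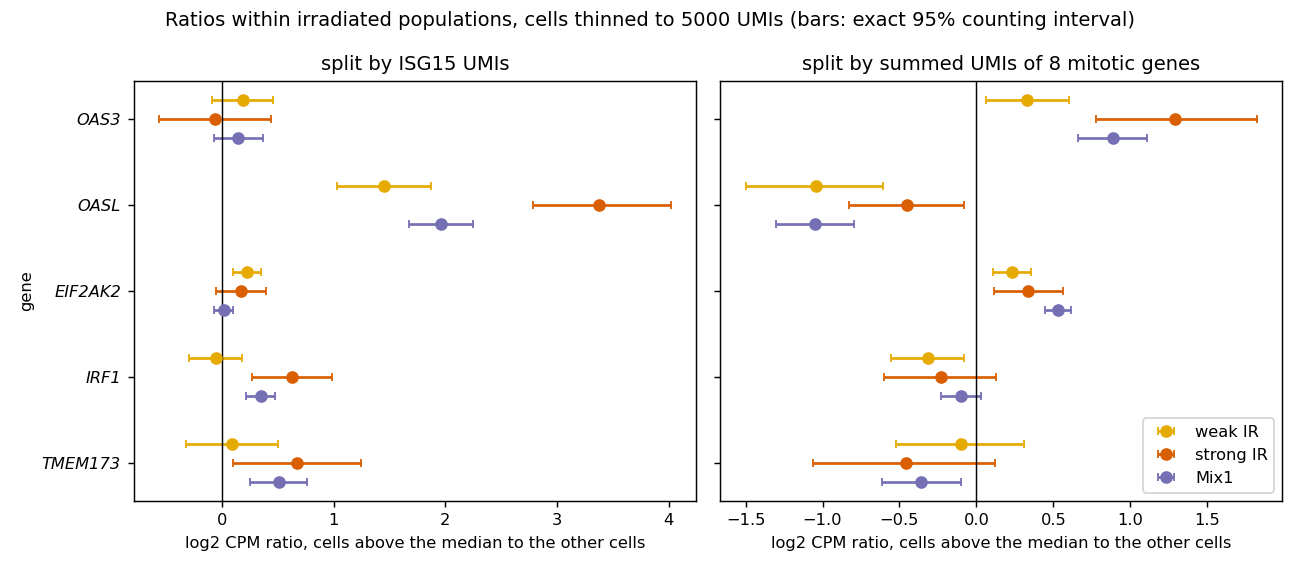
Log2 CPM ratio of cells above the median to the other cells of the same population (x axis), for 5 genes (y axis) in weak IR, strong IR and Mix1, divided by ISG15 UMIs (left) or by the summed UMIs of 8 mitotic genes (right), with exact 95% counting intervals. OASL lies far to the right for ISG15 and to the left for mitotic genes, whereas OAS3 and EIF2AK2 lie to the right for mitotic genes and, apart from EIF2AK2 in weak IR (ratio 1.17), have intervals that hold 0 for ISG15.

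Most thinned cells held UMIs of none or 1 of the 9 genes. In NC, 57.7% of cells had none, 35.1% had 1, 7.01% had 2 and 0.286% had 3 or more. In strong IR these were 50.8%, 37.0%, 9.97% and 2.23%, and in Mix1 45.9%, 39.8%, 12.2% and 2.07%. Strong IR cells with an OASL UMI (124 of 2066) had 3.48 times the ISG15 level of the cells without (3.31 to 3.65), 2.30 times the IRF1 level (1.57 to 3.29), 2.94 times that of STAT2 (1.27 to 6.05) and 2.17 times that of OAS3 (1.22 to 3.61). In Mix1 the OASL-positive cells had 3.32 times the ISG15 level (3.21 to 3.42) and 1.59 times the IRF1 level (1.31 to 1.92). Conversely, OASL was 4.33 times as high in strong IR cells with an IRF7 UMI as in those without (2.82 to 6.42). These ratios describe cells of 1 sample and were among 340 computed.

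For the genes with 10 CPM in any population, the genes of most similar profile were found by the Euclidean distance of centred log2(CPM + 1) values over the 5 populations, among 7937 genes. Nearest to OASL were IFI27, an interferon-stimulated gene, at a distance of 0.40, TP53INP1, a p53 target (0.43), and KLK10 (0.46), against a median of 2.30 over all genes. IRF1 was nearest to LIMA1 (0.05), HMOX1 (0.08) and PDLIM2 (0.10), and TMEM173 to UBASH3B (0.05), PPP1R11 (0.05) and CUX1 (0.06). OAS3 was nearest to POLR3B (0.10), NVL (0.17) and FOSL1 (0.20), and EIF2AK2 to ICE1 (0.04), DMTF1 (0.07) and LYN (0.09). For these 4 genes the median distances were 0.48 to 0.74. Distances over 5 points are small for many genes whose level hardly varies, and they describe the profile only.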

How the data were processed

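The matrices hold raw UMI counts per gene and cell, which the authors deposited as made by Cell Ranger (version 3.1.0 in the header of Mix1 and 3.0.1 in that of Mix2) against GRCh38, with 3 antibody tag counts in Mix2. The strand setting of the counting is not given in the sources used here. The unfiltered Mix2 matrix served only for empty droplets (49939 barcodes with at least 200 and fewer than 500 gene UMIs).

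Of 17019 and 13888 barcodes, 15630 in Mix1 and 11652 in Mix2 passed the limits on genes and mitochondrial UMIs, and 1671 Mix2 cells had no population, 1067 of them with under 500 tag8 counts and 597 with no tag at 80%. No doublet caller was run; the 80% limit removes droplets of mixed tags only. UMIs were summed per population and divided by their total (CPM), and 6 pairs of populations were compared. The 9 genes and the pathway lists were chosen with earlier results of these data known. Named besides the 9 were at most 4 genes per list with the largest log2 ratio past 1.5-fold in strong IR against NC and the 3 genes of most similar profile, and others are marked. Some genes of these lists are not reported here. Ratios and intervals were tested on simulated data drawn with independent counting error. That test does not cover UMIs gathered in few cells, such as those of OASL. For comparison, cells were thinned to 5000 UMIs without replacement with a fixed seed. Other alternatives changed the mitochondrial limit, the tag limits, the normalisation (TMM, edgeR 4.0.16), the gene minimum, the weight of cells and the background. Of 33538 gene identifiers, 33113 were found in GENCODE 44 (GRCh38). Python 3.11.15, numpy 2.4.6, scipy 1.17.1, pandas 2.3.3 and matplotlib 3.10.9 were used.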

Additional observations from a re-analysis of the deposited data

Results flagged for a closer look

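Droplets outside the 5 populations held more of some genes than NC, with a counting interval clear of equality and 1.5-fold or more. OASL was at 22.9 CPM in empty droplets of Mix2, at 13.0 CPM in Mix1 barcodes over the mitochondrial limit, at 19.7 CPM in such Mix2 barcodes and at 10.8 CPM in Mix2 cells of no population, against 2.95 CPM in NC. TMEM173 was at 13.2 CPM in Mix1 barcodes over that limit, at 16.1 CPM in such Mix2 barcodes and at 10.5 CPM in Mix2 cells of no population, against 6.88 CPM in NC. IRF1 was at 42.3 CPM in Mix1 barcodes over the limit, against 21.0 CPM in NC and 34.6 in the Mix1 cells that were kept.

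The ratios of OAS3 and EIF2AK2 to NC were above equality in weak IR and not clear of it in strong IR. In strong IR they were 0.908 and 0.986, with intervals that held equality. EIF2AK2 in strong IR was above NC under several alternatives, among them 1.04 under TMM and 1.02 after thinning. Mix1 was at 0.885 for OAS3 and 1.19 for EIF2AK2, and strong IR had 0.718 of the OAS3 level and 0.810 of the EIF2AK2 level of weak IR. With 1 sample per population, this difference was not tested.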

How the results depend on the processing

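Of 559 ratios of single genes under 11 alternatives, 504 stayed within the counting interval of the reported value. A total of 27 lay on the other side of equality, 23 of them ratios whose reported interval held equality. The other 4 were IRF9 in strong IR against NC (0.604), IRF7 in strong against weak IR (0.955) and IRF1 in strong IR against R (0.702), each with a mitochondrial limit of 5%, and TMEM173 in Mix1 against NC (0.991 with an own tag of at least 95%). Besides IRF9, 54 ratios left the interval, 22 of them under the 5% limit, which kept 172 NC and 31 R cells, and 14 with the 95% tag, which kept 88 and 44. A further 11 and 15 ratios had a level of 0 under these limits and gave no value. None of the ratios left its interval under TMM, which shifted all genes by at most 0.08 (log2), without mitochondrial and ribosomal genes, or in the alternatives without the 5% of cells with most UMIs and without cells under 2000 UMIs, both chosen after seeing the data. Background could not be subtracted in Mix1. OASL in strong IR against NC ranged from 5.51 to 35.2.

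The number of genes higher in strong IR than in NC, 2 as reported, was 1 (OASL) with the 5% limit, with the 95% tag, after thinning and without the cells with most UMIs, and 6 without the CPM minimum. In weak IR against NC, 0 became 2 (OASL and IRF1) with the 5% limit, 1 (OASL) without mitochondrial and ribosomal genes or with equal weight per cell, and 5 without the minimum. In R against NC, 0 higher became 1 (STAT2) without the minimum and 0 lower became 1 (OAS3) after thinning. In strong against weak IR, 1 higher became 0 with the 5% limit and 2 without the minimum, while 0 lower became 1 with the 5% limit and with doubled tag limits (OAS3) and without the minimum (IRF9). In strong IR against R, 1 became 2 after thinning (OAS3 and OASL) and 3 without the minimum. In Mix1 against NC, 2 became 1 (OASL) with the 95% tag and 6 without the minimum. Apart from the limits themselves, the cause was not tested. No paired analysis was possible because each population was a single sample.

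Depth limits OAS1, IRF9, IRF7 and STAT2 most, with 2, 4, 9 and 16 UMIs in NC. The intervals take UMIs as independent, while those of OASL were gathered in few cells.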

Other observations

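OASL was unevenly spread over cells of different depth. In Mix1 it was at 28.8 CPM in the quartile of cells with the fewest UMIs, at 14.7 and 8.63 CPM in the middle quartiles and at 13.7 CPM in the highest. In strong IR the quartiles held 32.7, 26.3, 24.4 and 23.2 CPM, and in weak IR 12.6, 9.88, 6.34 and 8.29 CPM, from the lowest to the highest. EIF2AK2 in strong IR went the other way, from 55.4 CPM in the lowest quartile to 72.2 in the highest. OASL is thus at its highest level in the shallowest cells of all 3 irradiated populations. In strong IR and weak IR the interval of the lowest quartile overlapped that of the next. The lowest quartile was also the highest in NC, at 5.19 CPM (1.68 to 12.1), and in R, at 5.79 CPM (1.58 to 14.8). These rested on 5 and 4 UMIs, and their intervals overlapped those of the other quartiles. Empty droplets of Mix2 held 22.9 CPM of OASL, and the part of background RNA in the quartile levels was not tested.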
